A study of Mus musculus with 22 samples.

Results

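Type I interferon response genes were followed in mouse kidney after cisplatin and the adenosine receptor blocker KW6002. The 9 genes Ifit1, Ifit2, Ifit3, Isg15, Irf7, Usp18, Oasl2, Ifi44 and Rsad2 were chosen by symbol from the 32858 genes of the count table, and all 9 were among the 17131 genes with enough counts to be tested. The study asked how KW6002 (istradefylline), given together with the platinum drug cisplatin, alters the kidney's response to that drug, and RNA was sequenced from whole kidneys of 22 mice in 4 groups. All were male C57Bl6/J mice aged 8 to 10 weeks. Control mice (n = 5) received vehicle, a mixture of 15% DMSO, 15% cremophor and 70% saline; KW6002 mice (n = 6) received 3 mg/kg of the compound in that vehicle every day from day -5 to day 7. Cisplatin mice (n = 5) received 6 daily injections of 3 mg/kg cisplatin in saline, and cisplatin plus KW6002 mice (n = 6) received both schedules. Kidneys of mice given cisplatin were collected 72 h after its last injection. The sample records hold a number for each library without saying what it stands for: it is in the 300s for vehicle mice 1 to 3 and KW6002 mice 1 to 3 and in the 500s for all others, and for the 9 genes values within the 500s are given beside the comparisons that use the former.

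Total counts ranged from 26471762 (vehicle 2) to 40510754 (KW6002 2), and the lowest count of any of the 9 genes in any library was 70 (Usp18). The kidney label was checked against marker genes. The 8 proximal tubule markers, led by Slc34a1, summed to between 20061 and 21691 CPM, counts scaled to a common library total, in the vehicle mice, and all 8 were tested. Markers of podocytes, led by Podxl, summed to between 467 and 572 CPM in the same mice. On the first component of the deviations of all genes from their group means, led by genes of fat and macrophages, vehicle 1 (34.4), vehicle 2 (33.3) and KW6002 1 (28.4) had the highest scores, while vehicle 5 (-30.7) and vehicle 4 (-23.4) had the lowest, so that the vehicle group was spread to both sides. The counts of changed interferon genes without the 3 highest libraries, an alternative chosen after seeing the data, were 8, 9, 7, 0 and 9 in the 5 comparisons reported here, against 8, 9, 7, 0 and 8 with them.

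Type I interferons are cytokines released when a cell senses foreign or misplaced nucleic acid. They bind the receptor pair Ifnar1 and Ifnar2, which acts through the kinases Jak1 and Tyk2 on the promoters of interferon-stimulated genes. Ifit proteins bind viral RNA, Isg15 is a ubiquitin-like protein that is attached to other proteins, Irf7 amplifies interferon production, and Usp18 removes Isg15 and damps signalling at the receptor; in the injured kidney, tubular cells as well as immune cells can switch on such genes.

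The promoters are shown because 7 of the members rose with cisplatin and 8 fell when KW6002 was added, and a sequence motif of interferon-stimulated genes is well described. RefSeq promoters of build GRCm38.p6, from 250 bases before to 50 after the gene start, were matched for 8 of the 9 members (all but Usp18). Both strands were searched for GAAANNGAAA, where N is any base. The motif was in the promoters of 4 of the 8 members (Ifit1, Ifit3, Isg15 and Rsad2) and not in these windows of Ifit2, Irf7, Oasl2 and Ifi44; of all 27025 gene symbols in the table, 1079 (3.99%) had it in any promoter, and of all 32851 promoters, 1131 (3.44%) held it. A match is a description of the letters only. The members were chosen as type I interferon response genes, so that a share above that of all genes is no independent result. Of the 4 members with the motif, Ifit1, Ifit3 and Isg15 rose with cisplatin and Rsad2 fell. Of the 4 without it in these windows, Ifit2, Irf7 and Oasl2 rose and Ifi44 did not pass. Each sequence is the 200 bases before the start, 5′ to 3′ on the strand of the gene, with the motif or its reverse complement in capitals: Ifit1 at chr19:34640689-34640888 (+), Ifit3 at chr19:34583329-34583528 (+), Isg15 at chr4:156200819-156201018 (-), Rsad2 at chr12:26456453-26456652 (-), and Ifit3b, the near copy of Ifit3, at chr19:34607757-34607956 (+).
Ifit1: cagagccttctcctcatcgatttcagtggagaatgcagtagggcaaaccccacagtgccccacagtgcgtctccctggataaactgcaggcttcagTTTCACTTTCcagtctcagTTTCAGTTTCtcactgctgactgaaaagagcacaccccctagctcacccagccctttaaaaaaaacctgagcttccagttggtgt
Ifit3: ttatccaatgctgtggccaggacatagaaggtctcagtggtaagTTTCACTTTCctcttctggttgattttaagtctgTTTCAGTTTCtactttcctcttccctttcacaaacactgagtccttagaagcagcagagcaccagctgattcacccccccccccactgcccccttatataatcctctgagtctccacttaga
Ifit3b: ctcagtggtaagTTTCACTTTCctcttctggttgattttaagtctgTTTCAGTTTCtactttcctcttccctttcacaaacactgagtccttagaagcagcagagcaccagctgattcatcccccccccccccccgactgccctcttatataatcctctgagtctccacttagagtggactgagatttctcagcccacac
Isg15: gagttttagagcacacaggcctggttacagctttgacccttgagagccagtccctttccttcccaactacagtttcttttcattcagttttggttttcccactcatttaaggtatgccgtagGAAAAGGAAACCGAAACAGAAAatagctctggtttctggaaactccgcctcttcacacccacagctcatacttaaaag
Rsad2: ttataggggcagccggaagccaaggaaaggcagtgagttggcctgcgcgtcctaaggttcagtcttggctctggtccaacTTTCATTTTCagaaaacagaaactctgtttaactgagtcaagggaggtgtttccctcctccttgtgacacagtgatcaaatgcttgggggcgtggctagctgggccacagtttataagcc
Ifit1 held 2 matches, from 104 to 95 and from 85 to 76 bases before the start. Isg15 held 3 matches that overlap each other, between 78 and 57 bases before the start. Rsad2 held 1 match, from 120 to 111 bases before the start. In Ifit3 the 2 matches lie at 156 to 147 and 122 to 113 bases, and in Ifit3b at 188 to 179 and 154 to 145 bases. Ifit1bl1, on the other strand, held a match from 104 to 95 bases before the start in a promoter. Another of its promoters held a match from 23 to 14 bases before the start. The window of Ifit1 (chr19:34640639-34640938) overlaps that of Ifit1bl2 on the other strand (chr19:34640694-34640993), and the 2 matches counted for Ifit1bl2 are the same bases as those of Ifit1, chr19:34640785-34640794 and chr19:34640804-34640813.

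In vehicle kidneys all 9 genes were measured well above 0. On the scale of CPM per kb of exon, which allows levels of different genes to be compared, Rsad2 (8.90 ± 1.35, SD, n = 5) and Ifit3 (8.80 ± 2.196) had the highest levels, followed by Isg15 (6.80 ± 1.14), Ifit2 (4.74 ± 0.781), Irf7 (3.68 ± 1.04), Ifi44 (2.86 ± 0.524), Ifit1 (2.19 ± 0.426), Oasl2 (2.14 ± 0.351) and Usp18 (1.18 ± 0.173). Neighbours in this order lay closer together than their spread for Rsad2 and Ifit3, Ifit3 and Isg15, Irf7 and Ifi44, and Ifit1 and Oasl2. With cisplatin the order of the levels per kb became Ifit3 (23.7 ± 0.999, n = 5), Isg15 (20.9 ± 2.68), Ifit2 (10.8 ± 0.679), Irf7 (9.54 ± 0.584), Ifit1 (7.46 ± 0.718), Rsad2 (5.06 ± 0.518), Oasl2 (3.99 ± 0.506), Ifi44 (2.602 ± 0.282) and Usp18 (1.87 ± 0.172), with Rsad2 in the sixth place. For Ifit3 the level per kb is a lower bound: of its 1696 windows of read length (50 bases), 869 (51.2%) also occur in another gene, all of them in Ifit3b, and only reads with a single place in the genome were counted. The share was 7.13% for Ifit1, 3.96% for Isg15, 2.81% for Usp18, 0.138% for Oasl2 and 0 for the other 4 genes.

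Cisplatin against vehicle shows the response to the drug alone. Changed means an adjusted p below 0.05 in edgeR over all 17131 genes, and differences are log2 fold changes with their standard error (SE). Of the 9 genes, 7 rose (Ifit1, Ifit2, Ifit3, Isg15, Irf7, Usp18 and Oasl2), Rsad2 fell, and Ifi44 did not pass. Of all genes tested, 34.6% were higher and 35.9% lower, so that a change as such is common here; the median log2 fold change was 1.18 over the 9 members and -0.01 over all genes. The groups did not overlap for 8 of the 9 genes, against 55.3% of all genes. In bulk tissue, fewer cells of a type and less RNA per cell cannot be told apart.

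**Figure D1:**
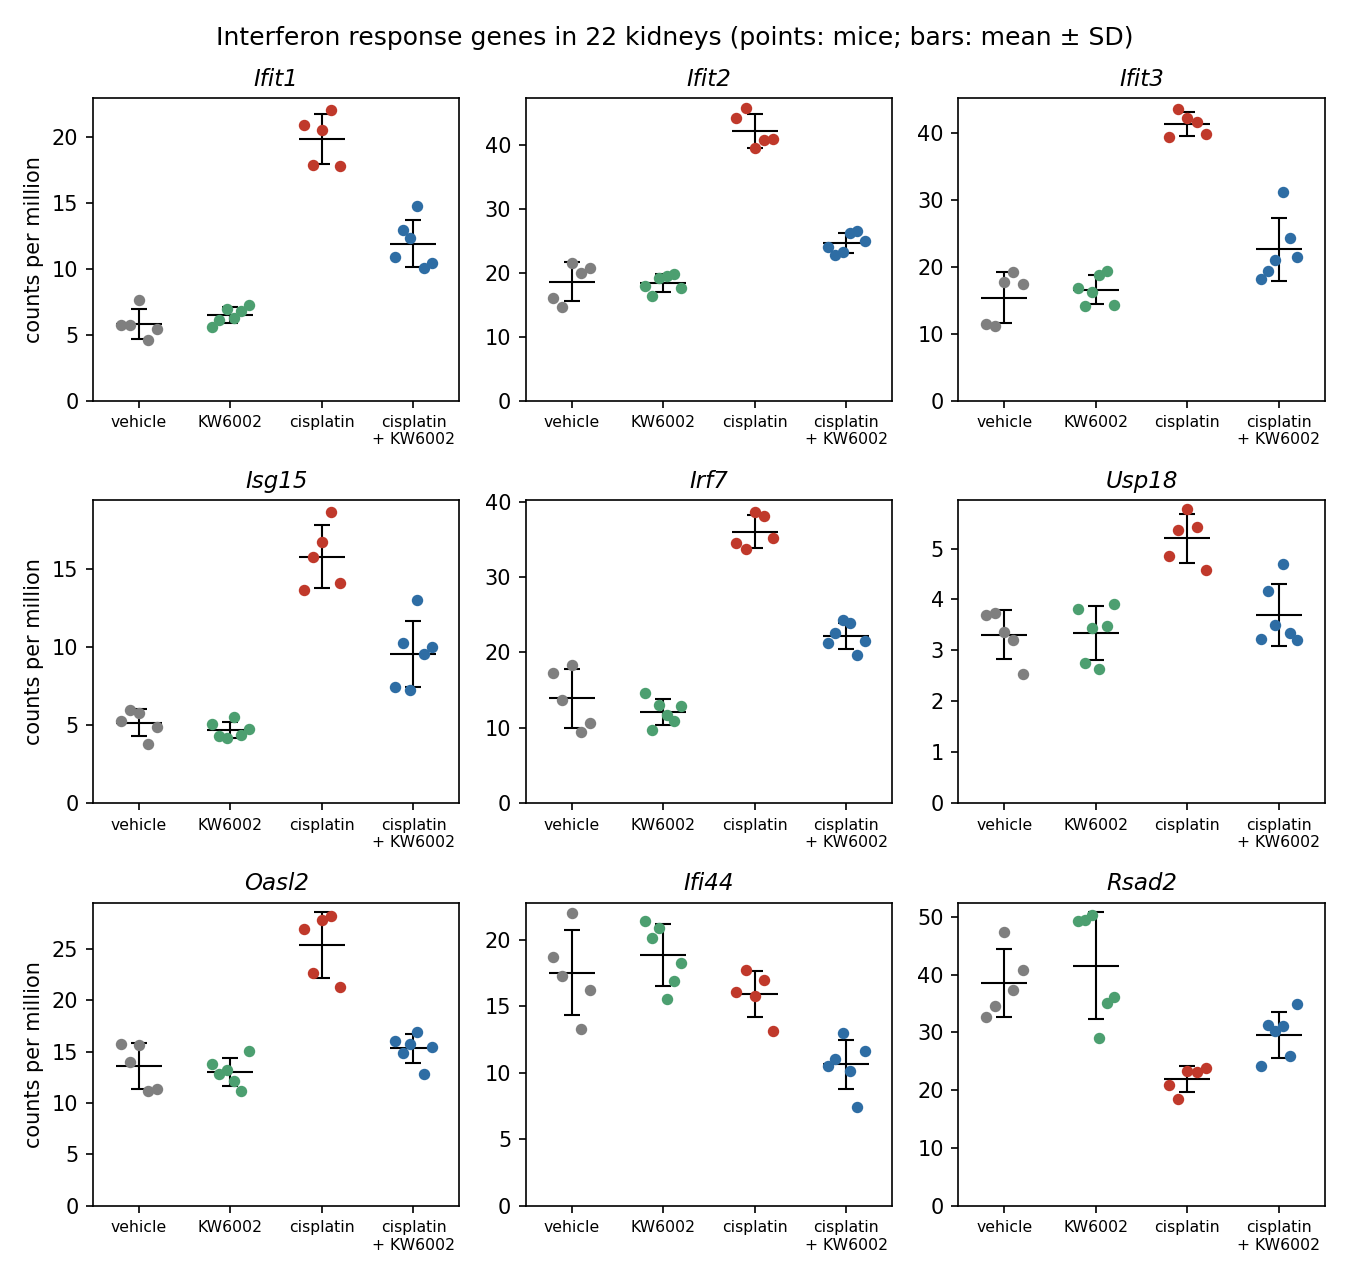
CPM of the 9 genes (y axis) in each mouse of the 4 groups (x axis); each point is a mouse, horizontal lines are means and bars are SD. Cisplatin mice lie above all vehicle mice for 7 genes and below them for Rsad2.

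The Ifit genes encode tetratricopeptide repeat proteins that hold back viral RNA. Ifit1 stood at 5.73, 5.69, 7.66, 4.58 and 5.40 CPM in vehicle mice 1 to 5 and at 20.9, 17.9, 20.5, 22.1 and 17.8 CPM in cisplatin mice 1 to 5. Every cisplatin mouse was far above the highest vehicle mouse. The log2 fold change was 1.77 (SE 0.121, adjusted p = 1.06e-11), the largest rise of the 9 genes. Ifit2 was measured at 16.1, 14.6, 21.5, 19.97 and 20.8 CPM with vehicle and at 44.3, 45.8, 39.5, 40.8 and 40.9 CPM with cisplatin. Again no cisplatin mouse came near the vehicle range, and the log2 fold change was 1.18 (SE 0.0865, adjusted p = 3.3e-11). Ifit3 gave 11.4, 11.1, 17.8, 19.2 and 17.4 CPM with vehicle and 39.3, 43.6, 42.2, 41.7 and 39.8 CPM with cisplatin. Vehicle mice 1 and 2 were the low ones of their group, and the groups stayed apart; Ifit3 rose by 1.43 log2 units (SE 0.148).

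Isg15 and its protease Usp18 form a pair that puts a ubiquitin-like tag on proteins and takes it off. Isg15 was at 5.28, 5.98, 5.78, 3.80 and 4.88 CPM with vehicle and at 13.6, 15.8, 16.7, 18.6 and 14.1 CPM with cisplatin. The lowest cisplatin mouse was above the highest vehicle mouse, and the log2 fold change was 1.62 (SE 0.145). Usp18 rose less, by 0.66 (SE 0.136, adjusted p = 0.000181), from 2.54 to 3.73 CPM with vehicle to 4.59 to 5.78 CPM with cisplatin. Of 3 tested genes of the conjugation machinery, Uba7 (0.31), the activating enzyme, and Ube2l6 (0.49), the conjugating enzyme, rose, against 34.6% of all genes. Herc6, the ligase, had a log2 fold change of -0.23 that did not pass (adjusted p = 0.0562). None of the 3 passed when KW6002 was added to cisplatin, where 28.6% of all genes were higher and 27.2% lower.

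Irf7, the transcription factor that amplifies interferon production, was at 17.3, 13.7, 18.4, 9.47 and 10.6 CPM with vehicle and at 34.5, 33.8, 38.7, 38.0 and 35.1 CPM with cisplatin. The 3 vehicle mice of the 300s were the highest of their group (mean 16.5 CPM against 10.0 in the 2 of the 500s), and all lay well below the cisplatin mice. The log2 fold change was 1.37 (SE 0.137). In vehicle mice the mean of the 300s was also higher for Ifit1 (6.36 against 4.99 CPM) and Isg15 (5.68 against 4.34 CPM). It was higher too for Usp18 (3.59 against 2.87 CPM), Oasl2 (15.2 against 11.3 CPM) and Ifi44 (19.3 against 14.8 CPM). It was lower for Ifit2 (17.4 against 20.4 CPM), Ifit3 (13.4 against 18.3 CPM) and Rsad2 (38.2 against 39.1 CPM). Oasl2, a relative of the oligoadenylate synthetases, rose by 0.90 (SE 0.107, adjusted p = 1.06e-07), from 11.2 to 15.8 CPM with vehicle to 21.3 to 28.3 CPM with cisplatin.

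Rsad2 (viperin), an enzyme that makes a chain-terminating nucleotide, moved the other way. It was at 32.6, 34.6, 47.4, 37.4 and 40.9 CPM with vehicle and at 20.9, 18.4, 23.3, 23.2 and 23.8 CPM with cisplatin. All cisplatin mice were below all vehicle mice, and the log2 fold change was -0.82 (SE 0.139, adjusted p = 1.82e-05). Cmpk2, a nucleotide kinase gene that lies next to Rsad2 on the opposite strand and was picked out after its values were seen, fell as well, by 0.52 log2 units (adjusted p = 3.98e-06). Ifi44, a cytoplasmic protein of less clear function, stood at 18.7, 17.3, 22.04, 13.3 and 16.2 CPM with vehicle and at 16.1, 17.7, 15.8, 17.0 and 13.2 CPM with cisplatin. Vehicle 1 and vehicle 3 lay above all cisplatin mice, and the other 3 vehicle mice lay within the cisplatin range. Its log2 fold change was -0.14 (SE 0.131, adjusted p = 0.364), and the sign turned with library size scaling only (0.08), with the label series as a covariate (0.08) and in the 500s alone (0.10).

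Within the 500s, with 2 vehicle mice, the log2 fold changes were 1.98 for Ifit1, 1.05 for Ifit2, 1.17 for Ifit3, 1.85 for Isg15, 1.84 for Irf7, 0.85 for Usp18, 1.17 for Oasl2 and -0.84 for Rsad2, and all 8 passed. The direction of the 8 changed genes was the same under every scaling tried. Scaling by library size only moved the median of all genes to 0.20 in cisplatin against vehicle and to 0.16 in cisplatin plus KW6002 against vehicle, and split the calls over all genes into 8157 higher and 4244 lower and into 7394 higher and 3525 lower; for the difference between the 2 KW6002 effects the split was 3041 and 4107, and for cisplatin plus KW6002 against cisplatin it was 4091 and 5435, where TMM gave 4900 and 4664. At the stricter thresholds of the study, which ask for an adjusted p under 0.01 and also for a change of more than 1 log2 unit, 5 of the 9 genes changed with cisplatin, against 24.1% of all genes.

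Cisplatin plus KW6002 against cisplatin shows what the receptor blocker added to the response. All 9 genes changed: 8 were lower and Rsad2 was higher with KW6002. Of all genes, 27.2% were lower and 28.6% higher. The median log2 fold change was -0.72 over the members and 0.01 over all genes, and the groups did not overlap for 8 of the 9 genes (37.8% of all genes). This comparison shares the cisplatin mice with the one against vehicle, so that a high or low value of these mice moves both fold changes in opposite directions; the values of both are given side by side, and a rise in one with a fall in the other is no independent result.

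Ifit1 ranged from 10.1 to 14.8 CPM in the cisplatin plus KW6002 mice, with a median of 11.6 CPM. Every mouse lay between the vehicle and the cisplatin mice. Against cisplatin the log2 fold change was -0.74 (SE 0.109, adjusted p = 5.84e-06). Ifit2 ranged from 22.8 to 26.5 CPM (median 24.6) and Ifit3 from 18.2 to 31.2 CPM (median 21.2). For Ifit2 the 6 mice were close together; for Ifit3 mouse 4 was the highest and still below the lowest cisplatin mouse. Ifit2 fell by 0.78 log2 units (SE 0.0808, adjusted p = 4.02e-08), the smallest p of the 9, and Ifit3 by 0.87 (SE 0.137), the largest drop.

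Isg15 ranged from 7.20 to 13.0 CPM (median 9.76) and fell by 0.72 log2 units (SE 0.132, adjusted p = 7.32e-05). Mouse 4 was the highest for Isg15 too, and it came close to the lowest cisplatin mouse without reaching it. Irf7 ranged from 19.7 to 24.3 CPM (median 21.99), entirely between the vehicle and the cisplatin mice, and fell by 0.70 (SE 0.127). Oasl2 fell by 0.73 (SE 0.101), to between 12.8 and 16.9 CPM, and Usp18 by 0.50 (SE 0.128, adjusted p = 0.00226), to between 3.21 and 4.70 CPM. Usp18 is the gene whose groups overlap: mouse 4 lies above the lowest cisplatin mouse.

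Ifi44, which had not passed with cisplatin alone, ranged from 7.41 to 13.0 CPM (median 10.8) with both drugs. All 6 mice were below the 5 cisplatin mice, the nearest pair being 13.0 and 13.2 CPM. It fell by 0.59 log2 units (SE 0.127, adjusted p = 0.000428) against cisplatin. Rsad2 ranged from 24.1 to 34.9 CPM (median 30.7). All 6 values were above those of the cisplatin mice, and Rsad2 rose by 0.43 (SE 0.134, adjusted p = 0.00863). Its neighbour Cmpk2 rose by 0.37 (adjusted p = 0.000266). No single library decided any of these 9 calls. At the study's thresholds none of the 9 passed (0, against 10.3% of all genes), since no log2 fold change went beyond 1.

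**Figure D2:**
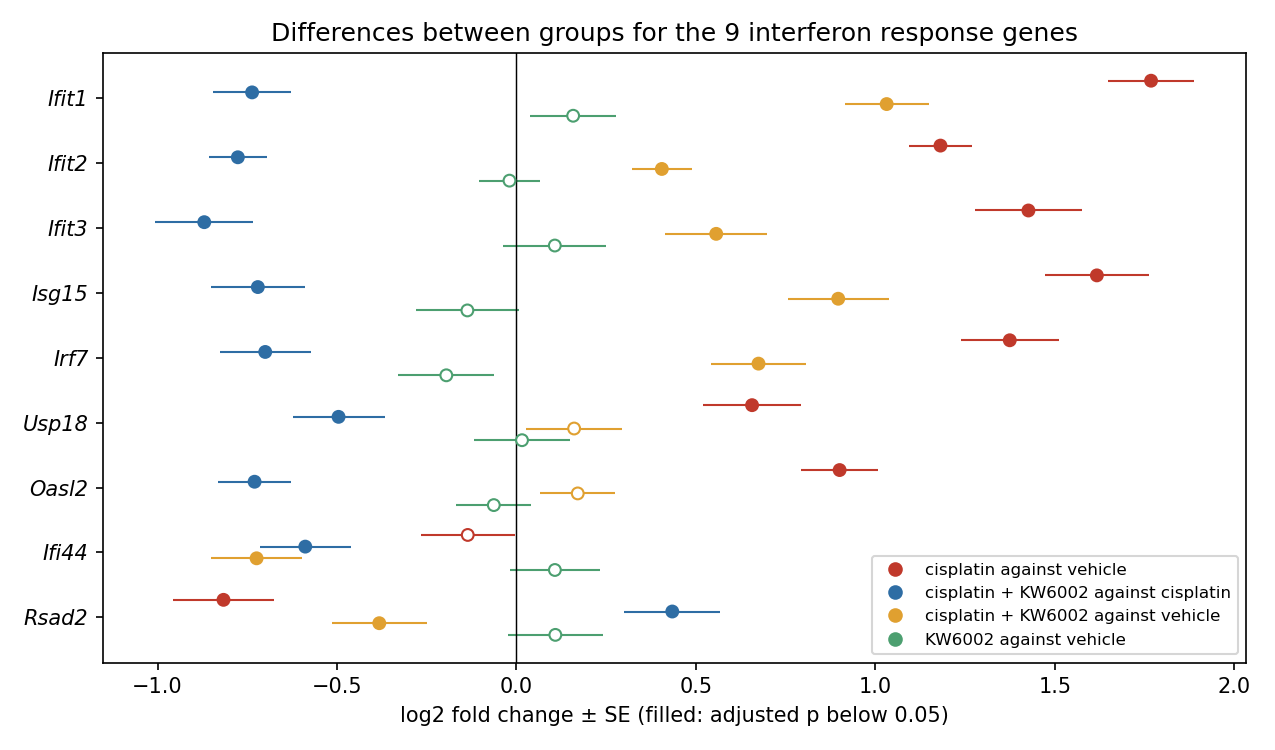
Log2 fold change (x axis) of each of the 9 genes (y axis) in 4 comparisons; bars are SE and filled points have an adjusted p below 0.05. Rsad2 lies on the other side of 0 from most genes in the comparisons that involve cisplatin, and all KW6002 points are open.

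Cisplatin plus KW6002 against vehicle shows how far the mice given both drugs remained from control mice. Of the 9 genes, 7 changed: 5 were higher, against 29.8% of all genes, and 2 were lower, against 29.9%. The median log2 fold change was 0.41 over the members and 0.00 over all genes, and 5 of the 9 did not overlap (37.5% of all genes). Ifit1 (1.03, adjusted p = 1.15e-07), Isg15 (0.90), Irf7 (0.67), Ifit3 (0.56) and Ifit2 (0.41) remained higher than with vehicle. Oasl2 (0.17, adjusted p = 0.162) and Usp18 (0.16, adjusted p = 0.306) did not pass. Ifi44 (-0.72, adjusted p = 4.11e-05) and Rsad2 (-0.38, adjusted p = 0.0163) were lower than with vehicle. Of the 9, Ifit1 alone passed the study's thresholds (1, against 13.4% of all genes).

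Several calls in this comparison changed with the processing. Without vehicle 3, the log2 fold change of Rsad2 was -0.30 and no longer passed (adjusted p = 0.0666); it was also lost with the label series as a covariate (-0.21, adjusted p = 0.19) and with library size only (-0.23, adjusted p = 0.136). Within the 500s Irf7 (1.14), Isg15 (1.14) and Ifit1 (1.25) were further from vehicle, Ifit2 (0.27) and Ifi44 (-0.48) nearer, Usp18 had 0.36 (adjusted p = 0.11) and Rsad2 -0.40, Oasl2 passed (0.44, adjusted p = 0.0107) and Ifit3 did not (0.31, adjusted p = 0.118). Oasl2 also passed with the label series as a covariate (0.31) and, with Usp18 (0.32), with library size only (0.33). Without vehicle 1, vehicle 2 and KW6002 1 Ifit2 (0.25) and Ifit3 (0.32) were nearer to vehicle and still passed.

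KW6002 against vehicle shows the effect of the blocker without cisplatin. None of the 9 genes changed: 0 passed in edgeR, 0 had an unadjusted p below 0.05, against 1930 of all genes, and 0 passed in DESeq2, which called 46 of all genes higher and 53 lower. Of all genes 0.0175% passed in edgeR, namely Per2, Psmd5 and Tsku, which were picked out after their values were seen. Log2 fold changes of the members ranged from -0.20 (Irf7, adjusted p = 0.6) to 0.16 (Ifit1, adjusted p = 0.641), and the groups overlapped for every member; of all genes 1.38% had groups that did not overlap. Within the 500s they ranged from -0.23 (Rsad2, adjusted p = 0.611) to 0.44 (Ifit1, adjusted p = 0.358). Ifit2 was at 16.4 to 19.8 CPM with KW6002 and at 14.6 to 21.5 CPM with vehicle, and Isg15 at 4.15 to 5.51 CPM against 3.80 to 5.98 CPM. For Rsad2 the KW6002 mice split by label series, with a mean of 49.7 CPM in the 3 mice of the 300s and of 33.4 CPM in the 3 of the 500s; the vehicle means were 38.2 and 39.1 CPM. A p that misses the threshold does not show that the groups are equal.

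The difference between the 2 KW6002 effects, with cisplatin minus without it, was tested on all 4 groups. It was lower than 0 for 8 of the 9 genes, against 19.9% of all genes, and Rsad2 did not pass (0.33, adjusted p = 0.169). The median was -0.67 over the members and 0.01 over all genes. The largest differences were those of Ifit3 (-0.98, SE 0.199, adjusted p = 0.000421), Ifit1 (-0.89, SE 0.162) and Ifit2 (-0.76, SE 0.117, adjusted p = 2.04e-05), followed by Ifi44 (-0.70), Oasl2 (-0.67), Isg15 (-0.58), Usp18 (-0.51) and Irf7 (-0.50). None passed the study's thresholds (0, against 8.58% of all genes). The calls of Irf7 and Usp18 were lost when certain single libraries were left out. For Irf7 the value was -0.39 without vehicle 4, -0.42 without vehicle 5, -0.44 without KW6002 1, -0.48 without cisplatin 3, -0.48 without cisplatin 4 and -0.47 without cisplatin plus KW6002 5, with adjusted p from 0.0506 to 0.0671. For Usp18 it was -0.43 without vehicle 5, -0.47 without KW6002 1, -0.46 without KW6002 6 and -0.47 without cisplatin 3, with adjusted p from 0.0529 to 0.0636, and -0.50 (adjusted p = 0.0659) with no filter on low counts. Within the 500s the difference was -1.17 for Ifit1, -0.67 for Ifit2, -0.80 for Ifit3, -0.87 for Isg15, -0.93 for Irf7, -0.71 for Usp18, -0.91 for Oasl2 and -0.78 for Ifi44, all of which passed, and Rsad2 passed with a positive one (0.67, adjusted p = 0.00522); without vehicle 1, vehicle 2 and KW6002 1 Rsad2 also passed (0.50, adjusted p = 0.0485).

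The 3 Ifit members lie in a cluster on chromosome 19 (GENCODE M21, GRCm38): Ifit2 at chr19:34550694-34576419, Ifit3 at chr19:34583531-34588731 and Ifit1 at chr19:34640871-34650009, all on the plus strand. Ifit3b, also on that strand and 57.3 kb from the start of Ifit2, had nearly the values of Ifit3, with 1.44 (SE 0.152) for cisplatin against vehicle and -1.003 (SE 0.141) for cisplatin plus KW6002 against cisplatin. Ifit1bl1 and Ifit1bl2, 42.2 and 66.4 kb from the start of Ifit2 and on the other strand, fell with cisplatin, by 1.18 (SE 0.217) and 1.08 (SE 0.214). Adding KW6002 raised Ifit1bl1 by 0.51 (adjusted p = 0.0456), and Ifit1bl2 had a value of -0.05 (adjusted p = 0.867). Within the cluster, the genes of the plus strand rose with cisplatin and those of the minus strand fell, although Ifit1 and Ifit1bl2 start next to each other.

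**Figure D3:**
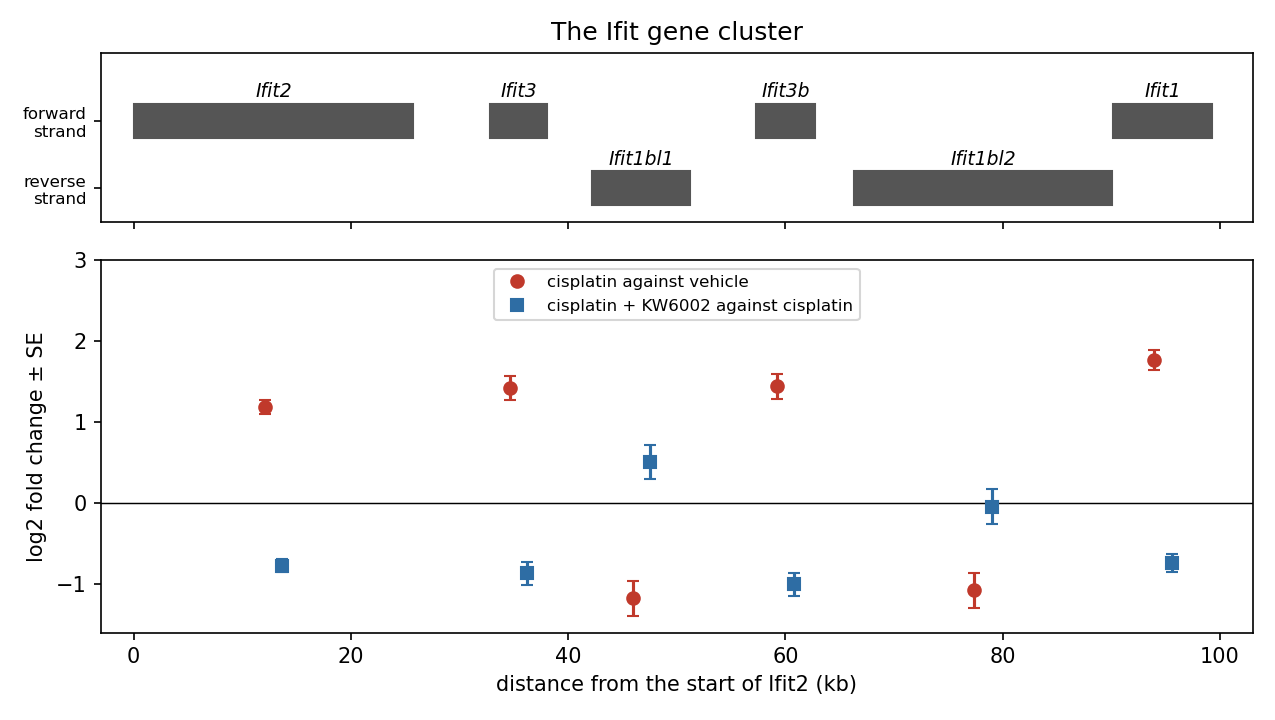
Upper panel, positions of the 6 Ifit genes in kb from the start of Ifit2 (x axis) by strand; lower panel, their log2 fold change (y axis, bars are SE) in 2 comparisons. The 4 genes of the forward strand lie above 0 with cisplatin and below 0 when KW6002 is added.

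The other members lie on other chromosomes: Isg15 at chr4:156199424-156200818 (-), Irf7 at chr7:141262706-141266481 (-), Usp18 at chr6:121245906-121270917 (+), Oasl2 at chr5:114896936-114912234 (+), Ifi44 at chr3:151730922-151749960 (-) and Rsad2 at chr12:26442746-26456452 (-). Exons of Irf7 share 45 bases (1.19%) with Phrf1 and exons of Usp18 share 124 bases (4.44%) with Gm44148, both on the opposite strand; whether reads were assigned by strand is not stated in the submitters' notes.

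Within groups, the 9 genes did not vary as a single block. Over the 36 pairs, Pearson's r of the deviations from the group mean in 22 libraries ranged from -0.37 to 0.83 with a median of 0.18, and 5 pairs had an adjusted p below 0.05 by permutation test (Benjamini-Hochberg over 36 pairs, both sides). Ifit2 and Ifit3 were the closest pair, with r = 0.83 (permutation p = 0.00025, adjusted 0.00864) and Spearman's rho = 0.83 (p = 0.00023, adjusted 0.00828); r was 0.78 without the 2 libraries farthest from the median and 0.64 in the 16 libraries of the 500s. Irf7 and Oasl2 gave r = 0.77 (permutation p = 0.00048, adjusted 0.00864) and rho = 0.75 (p = 0.00081, adjusted 0.0146), with 0.71 and 0.74 in these subsets. Ifit1 and Oasl2 gave r = 0.63 (permutation p = 0.00392, adjusted 0.0282) and rho = 0.64 (p = 0.00299, adjusted 0.0359), with 0.57 and 0.65. For Oasl2 and Ifi44 (r = 0.65, permutation p = 0.00288, adjusted 0.0282; rho = 0.49, p = 0.0383, adjusted 0.157; 0.50 and 0.53) and for Irf7 and Ifi44 (r = 0.62, permutation p = 0.00377, adjusted 0.0282; rho = 0.56, p = 0.0187, adjusted 0.104; 0.41 and 0.56) the rank correlation did not pass. Ifit2 and Oasl2 had the lowest r, -0.37 (permutation p = 0.212, adjusted 0.45; rho = -0.38, p = 0.159, adjusted 0.383; -0.60 and -0.44).

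**Figure D4:**
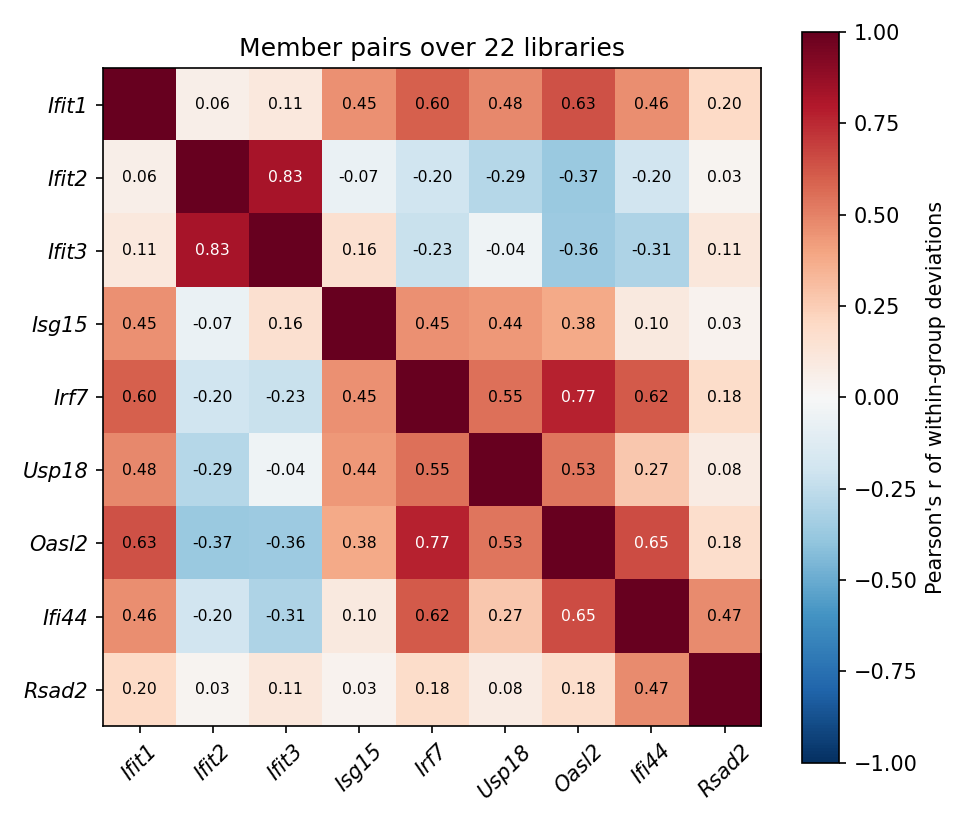
Pearson's r of within-group deviations for the 36 pairs of the 9 genes (both axes list genes; colour and printed value give r, 22 libraries). Ifit2 and Ifit3 form a pair apart from Irf7, Oasl2, Ifit1 and Ifi44.

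The 8 genes whose deviations within groups were most like the mean deviation of the members were Rps15 (r = 0.736, n = 22), Mrpl55 (0.719), Gm7962 (0.686), Mir22hg (0.685), Cops8 (0.684), Tuba4a (0.683), 2010300C02Rik (0.675) and Nrxn3 (0.673). These values are a description of likeness over 22 libraries of differing depth.

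Upstream of the members, the interferon genes themselves were barely detected. Of 20 listed type I and III interferon genes, 8 were in the table with 22 counts in all, at most 7 in a library and 0 in 11 of the 22 libraries; there were 5 counts in the vehicle, 2 in the KW6002, 8 in the cisplatin and 7 in the cisplatin plus KW6002 libraries, too few for a test at this depth. The other 12 had no row in the table, which held 0 genes with 0 counts in every library. Of 12 receptor and signalling genes, 9 rose and 1 fell with cisplatin (median log2 fold change 0.39), against 34.6% higher and 35.9% lower of all genes (median -0.01), and 1 rose and 7 fell when KW6002 was added (median -0.22), against 28.6% and 27.2% (median 0.01). Ifnar1, a chain of the type I receptor, had 0.41 (adjusted p = 1.12e-07) and -0.21 (adjusted p = 0.000728) in these comparisons. Ifngr1, a chain of the interferon gamma receptor, had 1.85 and -1.02, while the kinase Jak1 (-0.02 and 0.07) did not pass in either.

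Among 18 nucleic acid sensors and adaptors, 10 rose and 1 fell with cisplatin, against 34.6% higher and 35.9% lower of all genes, and 1 rose and 10 fell when KW6002 was added, against 28.6% and 27.2%. Sting1, the adaptor of DNA sensing, rose by 2.09 (adjusted p = 5.76e-11) and then fell by 0.56; Mavs, the adaptor of RNA sensing, rose by 0.36 and fell by 0.48. Tbk1, the kinase downstream of both, had -0.09 (adjusted p = 0.0705) with cisplatin and rose by 0.28 with KW6002 added, and the ubiquitin ligase Trim25 (-0.06 and -0.09) passed in neither. Of the 7 other interferon regulatory factors, 4 rose and 1 fell with cisplatin, against 34.6% higher and 35.9% lower of all genes, and 1 rose and 3 fell with KW6002 added, against 28.6% and 27.2%. Irf1, a factor that also answers to interferon gamma, was the one that rose in the second comparison (0.72, adjusted p = 8.88e-07) after a rise of 0.40 in the first. Irf4 rose by 2.61 with cisplatin (-0.39 with KW6002 added, adjusted p = 0.482), and Irf3 had 0.09 (adjusted p = 0.08) and then fell by 0.20.

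Of 75 tested genes of the wider class of interferon-stimulated genes, 41 rose, 16 fell and 18 did not pass with cisplatin (median 0.38), against 34.6% higher and 35.9% lower of all genes, and 8 rose, 39 fell and 28 did not pass with KW6002 added (median -0.32), against 28.6% and 27.2%. Lgals3bp, a secreted glycoprotein, rose by 2.23 (adjusted p = 2.73e-14) and fell by 1.31 (adjusted p = 3.08e-10), and Ly6e, a membrane protein that alters viral entry, rose by 1.20 and fell by 0.68. Samd9l, an antiviral protein that holds back translation, fell by 1.17 with cisplatin and rose by 0.36 with KW6002 added, the direction of Rsad2. Of 11 negative regulators and nucleases, 3 rose and 3 fell with cisplatin, shares below the 34.6% and 35.9% of all genes, and 2 rose and 4 fell with KW6002 added, against 28.6% and 27.2%. Socs3, an inhibitor of cytokine receptors, rose by 3.99 and fell by 0.86, Rnaseh2a rose by 0.74 and fell by 0.74, Samhd1 fell by 0.25 and then had -0.01 (adjusted p = 0.938), and Pias1 passed in neither comparison (0.00 and -0.08).

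A further list holds genes induced above all by interferon gamma. Of 16 tested GTPases of the immunity-related and guanylate-binding families, which attack the vacuoles of intracellular pathogens, 2 rose, 5 fell and 9 did not pass with cisplatin (median -0.04), against 34.6% higher and 35.9% lower of all genes, while 13 rose, 0 fell and 3 did not pass when KW6002 was added (median 0.62), against 28.6% and 27.2%; the 2 KW6002 effects differed upward for 10 of the 16, and for 3902 of the 17131 genes tested. Irgm1 lay between 47.1 and 66.3 CPM in the vehicle, between 58.0 and 66.5 CPM in the cisplatin and between 97.8 and 192 CPM in the cisplatin plus KW6002 mice. No mouse given both drugs came near the other groups, and the log2 fold changes were 0.16 (adjusted p = 0.242) with cisplatin and 1.22 (adjusted p = 1.13e-08) with KW6002 added. Igtp (-0.23, adjusted p = 0.126, then 1.78, adjusted p = 1.92e-10), Irgm2 (-0.04, adjusted p = 0.781, then 1.10) and Gbp7 (1.03, then 0.57) rose in the second comparison as well. Ifng itself had 13 counts in 9 libraries and was not tested. Of 4 chemokines, Cxcl10 rose in both comparisons (1.52, then 0.90, adjusted p = 0.00017), and Cxcl9 (-2.56, then -0.11) and Cxcl11 (-0.75, then 0.40) fell with cisplatin and did not pass in the second; Ccl5, picked out after its values were seen, had -0.62 (adjusted p = 0.0768) and then rose by 0.78 (adjusted p = 0.0253). The 9 members and these GTPases had medians of opposite sign in cisplatin plus KW6002 against cisplatin; a difference between the lists was not tested.

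**Figure D5:**
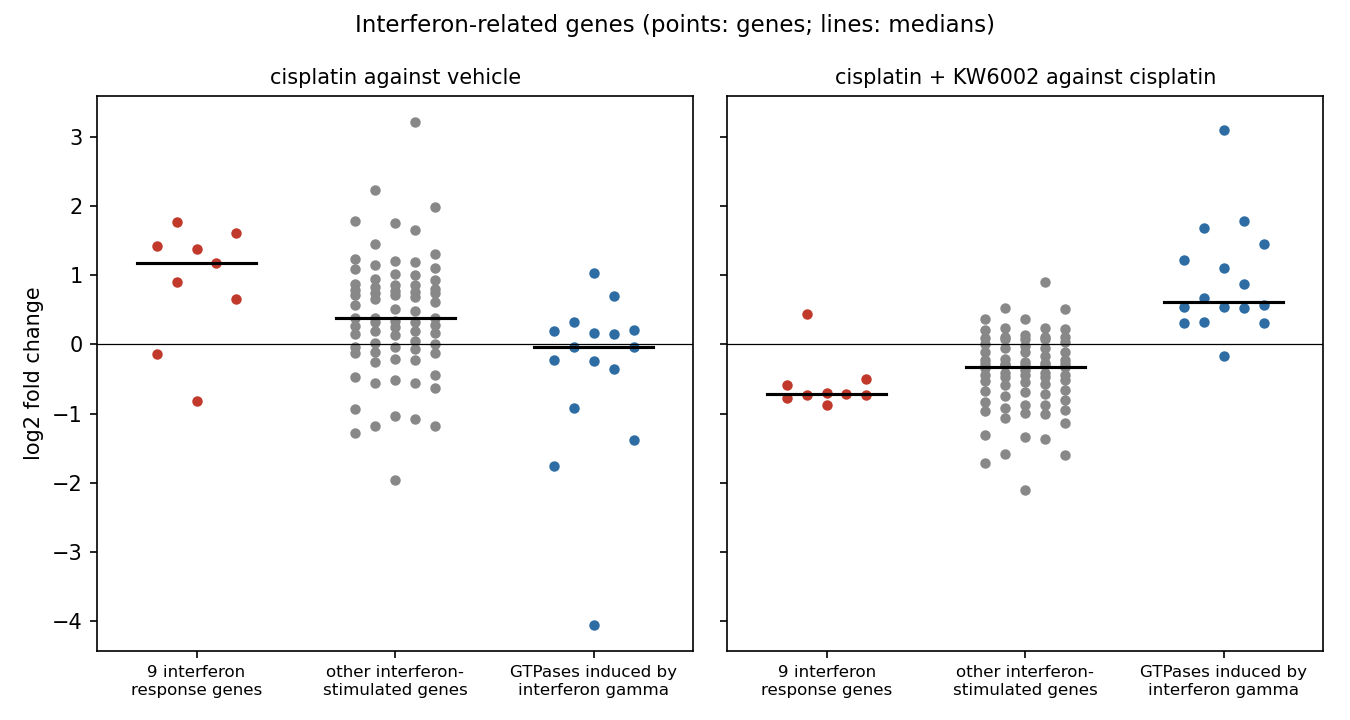
Log2 fold change (y axis) of each tested gene (points) in 3 lists (x axis), for cisplatin against vehicle on the left and cisplatin plus KW6002 against cisplatin on the right; lines are medians. The GTPases lie mostly above 0 on the right, where most of the 9 genes lie below it.

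Of 8 genes often used as references, 4 rose and 1 fell with cisplatin, against 34.6% higher and 35.9% lower of all genes, and 1 rose and 3 fell with KW6002 added, against 28.6% and 27.2%. Rplp0 rose by 1.13 and fell by 0.36, Hprt rose by 0.89 and fell by 0.50, B2m, which interferon also induces, rose by 0.38 and fell by 0.43, and Actb rose by 0.39 and then had -0.01 (adjusted p = 0.975).

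Markers of several cell types changed in the same comparisons, some in the direction of most members and some in the other. Their part in these results was not tested. Of all genes, 34.6% rose and 35.9% fell with cisplatin, and 28.6% rose and 27.2% fell with KW6002 added. All 8 proximal tubule markers fell with cisplatin and 6 of 8 rose with KW6002 added; their summed level, of which Slc34a1 is the largest, was 4332, 5611, 4719, 4954 and 6495 CPM in cisplatin mice 1 to 5 and 9477 to 13730 CPM (median 10065) in the mice given both drugs. All 6 genes of tubular injury rose with cisplatin and 5 of 6 fell with KW6002 added; their sum, led by Clu, was 282, 231, 215, 220 and 230 CPM with vehicle, 3515, 3288, 3257, 3128.5 and 2154 CPM with cisplatin, and 906 to 1438 CPM (median 1207) with both. All 5 fibroblast markers, led by Dcn, rose with cisplatin and 4 fell with KW6002 added, with sums of 361, 345.2, 169, 264 and 255 CPM, of 901, 802, 728, 698 and 790 CPM, and of 317 to 566 CPM (median 382). The endothelium sums were 461 to 509 CPM with vehicle, 456 to 608 CPM with cisplatin and 424 to 494 CPM with both. Of these 6 markers, 2 rose and 2 fell with cisplatin, and 1 rose and 3 fell with KW6002 added. Distal convoluted tubule sums were 1589 to 1654, 45.6 to 90.7 and 156 to 383 CPM in the same order. All 3 markers fell with cisplatin and 2 rose with KW6002 added. Thick ascending limb sums were 4723 to 7829, 2036 to 2367 and 2399 to 4313 CPM, and all 4 markers fell with cisplatin and 3 rose with KW6002 added. Conventional dendritic cell sums, led by Zbtb46, were 17.4 to 24.9, 15.7 to 18.6 and 13.8 to 17.4 CPM. Of these 5 markers, 0 rose and 3 fell with cisplatin (median log2 fold change -1.12), and 0 rose and 1 fell with KW6002 added.

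Immune cell markers were less uniform. Of 8 macrophage markers, led by Csf1r, 2 rose and 2 fell with cisplatin and 1 rose and 2 fell with KW6002 added, all below the shares of all genes; they summed to 318, 302, 180, 167 and 169 CPM with vehicle, 273, 250, 253, 249 and 318 CPM with cisplatin and 131 to 192 CPM (median 155) with both. Of 4 monocyte markers, led by Plac8, 2 rose and 1 fell with cisplatin and 1 fell with KW6002 added; their sums of 33.2, 28.6, 24.03, 16.7 and 12.3 CPM with vehicle, 70.6, 53.5, 64.0, 60.1 and 63.4 CPM with cisplatin and 38.9 to 52.2 CPM (median 43.9) with both did not overlap between these groups. Plasmacytoid dendritic cells, a main source of type I interferon, had little signal: Siglech had 121 and Ccr9 84 counts in all 22 libraries together, and the 3 other markers, led by Pacsin1, all fell with cisplatin, with sums of 4.34, 3.01, 2.86, 2.89 and 3.29 CPM with vehicle, 0.613, 1.18, 0.666, 0.642 and 0.963 CPM with cisplatin and 1.06 to 1.46 CPM (median 1.20) with both. All 4 fat markers, led by Fabp4, fell when KW6002 was added to cisplatin, from sums of 340, 336, 609, 627 and 371 CPM to 37.9 to 211 CPM (median 89.1).

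Of 6 markers of natural killer (NK) cells, led by Klrk1, Ncr1 (82 counts in all libraries) and Klrb1c (107) were not tested; of the 4 others, 1 rose and 3 fell with cisplatin, and 2 rose and 0 fell with KW6002 added. Their sums were 1.30, 1.08, 1.68, 1.06 and 1.27 CPM with vehicle, 0.506, 0.502, 0.799, 0.803 and 0.821 CPM with cisplatin and 0.910 to 1.43 CPM (median 1.08) with both. All mice given both drugs thus lay above all cisplatin mice, in a comparison where 37.8% of all genes did not overlap. The NK sums with both drugs overlapped those with vehicle. Irgm1 with both drugs (97.8 to 192 CPM) lay above all vehicle mice (47.1 to 66.3 CPM). The part of NK cells in the rise of the GTPases was not tested. Of 6 T cell markers, led by Lck, Cd3d (144 counts) was not tested; 1 of the other 5 rose and 3 fell with cisplatin, and 1 rose and 2 fell with KW6002 added, with sums of 6.99, 3.77, 4.60, 5.25 and 4.20 CPM with vehicle, 3.38, 3.62, 2.96, 3.08 and 3.54 CPM with cisplatin and 2.05 to 3.02 CPM (median 2.61) with both. Of 5 B cell markers, led by Ighm, 0 rose and 4 fell with cisplatin, and 1 rose and 1 fell with KW6002 added, with sums of 33.0, 16.5, 14.1, 7.78 and 13.4 CPM, of 1.39, 3.89, 2.29, 2.62 and 3.62 CPM, and of 3.36 to 15.6 CPM (median 4.67). With cisplatin both lymphocyte sums were below those of all vehicle mice. Of 6 neutrophil markers, led by S100a9, Ly6g (24 counts) was not tested; 2 of the other 5 rose and 0 fell with cisplatin, and 0 rose and 3 fell with KW6002 added, with sums of 17.7, 14.4, 4.23, 6.97 and 6.70 CPM, of 9.24, 5.78, 12.0, 11.5 and 7.05 CPM, and of 4.04 to 7.80 CPM (median 5.30), which overlap between all 3 groups.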

How the data were processed

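RNA from 22 mouse kidneys was sequenced as single-end 50-base reads. Per the submitters' processing notes, base calls were made with bcl2fastq 2.17.1.14, reads were aligned to mm10 with STAR, and HTSeq 0.6.1p1 counted reads with a single place in the genome; whether it used the strand is not stated. The deposited table holds each gene's count, the number of reads the authors assigned to it. A further 66 columns are empty, without a header, and were left out. Symbols came from GENCODE M21, which gave 32824 of 32858 genes a symbol. Reads that fit more than a single place were not counted, which lowers genes with near copies such as Ifit3.

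Counts were fitted in R 4.3.3 with edgeR 4.0.16 (quasi-likelihood F test, TMM factors, filterByExpr with a minimum count of 10, a mean per group for all 22 libraries), with p-values adjusted by Benjamini-Hochberg over the 17131 genes tested, and a gene changed at an adjusted p below 0.05. CPM uses the effective library sizes. SE is the log2 fold change divided by the square root of F. Standard deviations (SD) are over mice. Total counts from 26471762 to 40510754 set the precision, and each library is from another mouse. Pairs of members were compared by permutation test with 100000 permutations. Alternatives were DESeq2 1.42.0, RLE factors, scaling by library size only, the compared groups alone, no filter on low counts or a minimum of 10 in each library, the replicate number as a block, the label series as a covariate, the 500s alone, the study's thresholds, glmTreat with a log2 threshold of 1, each library left out in turn and, chosen after seeing the data, 3 libraries left out. The fit was tested on simulated data. Python 3.11.15, pandas 2.3.3 and matplotlib 3.10.9 were used for tables and figures.

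Named genes were the 9 members; from each pathway list the 3 with the highest mean CPM and those with the smallest p in cisplatin against vehicle and in cisplatin plus KW6002 against cisplatin; the 8 genes most like the members within groups; the most abundant gene of each cell type list; and Ifit3b, Ifit1bl1 and Ifit1bl2. A gene that this rule names is not reported here. Members and lists were chosen with earlier results of these data known.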

Additional observations from a re-analysis of the deposited data

Results flagged for a closer look

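The 9 genes' values held no library far from the rest of its group. Among 72 groups of single genes tested for a value far from the others, 2 had one: Cmpk2 in cisplatin 5, at 14.3 CPM with the nearest mouse at 12.2 CPM, and Irgm1 in cisplatin 5, at 66.5 CPM with the nearest at 59.8 CPM. Among 76 groups of summed cell type markers, 9 had such a value. With vehicle these were vehicle 3 for the distal convoluted tubule (1589 CPM) and for intercalated cells (288 CPM), both low, and vehicle 1 for tubular injury (282 CPM), high. KW6002 1 was high for macrophages (358 CPM) and KW6002 6 for tubular injury (315 CPM). Cisplatin 5 was low for endothelium (456 CPM) and for tubular injury (2154 CPM). With both drugs, mouse 1 was low for collecting duct principal cells (458 CPM) and mouse 3 high for B cells (15.6 CPM). Chance alone gives such a value in about 1 in 20 groups.

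The effect of KW6002 differed between mice with and without cisplatin, by the test of the difference itself, for 8 of the 9 genes, all downward, against 19.9% of all genes, with log2 differences of -0.89 (Ifit1), -0.76 (Ifit2), -0.98 (Ifit3), -0.58 (Isg15), -0.50 (Irf7), -0.51 (Usp18), -0.67 (Oasl2) and -0.70 (Ifi44). The calls of Irf7 and Usp18 were lost when certain single libraries were left out.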

How the results depend on the processing

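The number of the 9 genes that changed kept its size under most alternatives. At the study's thresholds it was 5 with cisplatin against vehicle, 0 with cisplatin plus KW6002 against cisplatin, 1 with cisplatin plus KW6002 against vehicle and 0 for the difference between the KW6002 effects; by glmTreat with a log2 threshold of 1 it was 5, 0, 0 and 0. Both ask for larger changes by construction. Leaving out each library in turn gave 8 to 8, 9 to 9, 6 to 7, 0 to 0 (KW6002 against vehicle) and 6 to 8 genes. With the replicate number as a block the counts were 8, 9, 7, 0 and 8; of the 31 pairs of libraries with the same number in different groups, 7 had a correlation of within-group deviations above 0.1 (range -0.175 to 0.405), and 8 of the 22 libraries correlated best with a library of their own number. Whether mice were paired by number was not tested. The fit with the compared groups alone was not run for the difference between the KW6002 effects, which uses all groups.

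Values that changed sign were small, and the cause was not tested. Ifi44 in cisplatin against vehicle turned to 0.0798 with library size only, 0.0789 with the label series as a covariate and 0.10 in the 500s. In KW6002 against vehicle, where no gene passed, the 500s gave -0.0662 for Ifit3, 0.16 for Isg15, 0.24 for Irf7, 0.18 for Oasl2 and -0.23 for Rsad2, and leaving out 3 libraries, chosen after seeing the data, gave -0.13 for Ifit3, 0.0155 for Oasl2 and -0.0639 for Rsad2. Leaving out each library gave -0.0935 to 0.0384 for Ifit2 and -0.0668 to 0.0723 for Usp18.

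The 300s hold no cisplatin mice, so that only the 500s compare all 4 groups, with 2 vehicle mice. The interferon genes themselves had 22 counts in all, too few for a test.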

Other observations

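Globin and heme synthesis genes of red blood cells, led by Hbb-bs, summed to 65.9 to 408 CPM in the vehicle mice and 73.7 to 352 CPM in the KW6002 mice, but to 0.0266 to 0.201 CPM in the cisplatin mice and 0.320 to 0.655 CPM in the mice given both drugs. All 5 fell with cisplatin, against 35.9% of all genes, by a median log2 fold change of -10.25. None passed in cisplatin plus KW6002 against cisplatin, where 28.6% of all genes were higher and 27.2% lower.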
